A study of Homo sapiens with 8 samples.

Results

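MGMT, ALKBH2, ALKBH3 and MPG, the genes for the direct repair of alkylated DNA bases and the glycosylase that removes them, are 4 of the 19952 gene symbols measured in 8 RNA-seq libraries of human uveal melanoma (UVM) cells. MGMT was chosen because its level differed so widely between MEL290 cells with and without added APOBEC3B (A3B), and the other 3 genes were taken for their function. The size of the MGMT difference in MEL290 is therefore a description and not a finding, and no test of it is given.

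MGMT encodes O6-methylguanine-DNA methyltransferase, which takes the alkyl group from the O6 position of guanine onto itself in a single use of the protein. ALKBH2 and ALKBH3 are dioxygenases that reverse methylation on adenine and cytosine by oxidation, ALKBH2 mainly in double-stranded DNA and ALKBH3 mainly in single-stranded DNA and RNA. MPG is the glycosylase that cuts out alkylated purines and hands the site to base excision repair. MGMT is known for being silenced in many tumours by methylation of its CpG-rich promoter, and its loss makes cells sensitive to alkylating drugs such as temozolomide.

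Of the 8 libraries, 4 came from 92.1 cells, 2 with a control vector (shCtrl) and 2 with a short hairpin RNA against A3B (shA3B), a cytidine deaminase of single-stranded DNA. The other 4 came from MEL290 cells, 2 with a negative control (NC) and 2 with the full-length A3B cDNA (A3B OE). The methods of the study describe lentiviral vectors carrying puromycin resistance for both the hairpins and the cDNA, and which hairpin the sequenced cells carried is not given in the sources used here. No label says that replicates were separate cultures, so the p-values measure the spread between these libraries, which may be technical. Exact permutation of 1 value over 2 libraries a side (two-sided) allows no p under 0.33, so the tests below are limma fits over all genes.

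Levels are FPKM, fragment numbers scaled to transcript length and to the mapped fragments of the library. Differences are on the log2(FPKM + 1) scale and come out too small where FPKM is low. Genes with an adjusted p under 0.05 were called. A3B itself followed the labels, at 34.1 ± 2.56 FPKM (SD, n = 2) in shCtrl and 2.18 ± 0.278 FPKM in shA3B, and at 2.43 ± 0.341 FPKM in NC and 27.9 ± 0.644 FPKM in A3B OE. The A3B difference was -3.47 in 92.1 (limma adjusted p = 2.37e-06) and 3.08 in MEL290 (limma adjusted p = 0.000775). Depth, estimated only roughly from the smallest FPKM values, was between 17700000 and 32200000 fragments. All 10 melanocyte marker genes were at 1 FPKM or more in 92.1, with sums of 7255 to 8874 FPKM. In MEL290 the sums were 32.7 to 39.4 FPKM, with TYR, the enzyme of melanin synthesis, listed at 0 in both groups and SOX10 and S100B listed at 0 in NC. Of the 10 markers, 2 were at 1 FPKM or more in NC and 3 in A3B OE, GPR143 and MITF among them, so most defining markers of the labelled cell type were absent or near 0 in MEL290. The melanocyte sum was 32.9 to 39.4 FPKM in NC and 32.7 to 35.1 FPKM in A3B OE, the immune and endothelial sums stayed under 1 FPKM in every library, and the epithelial sum was 7.04 to 7.29 FPKM in NC and 3.51 to 4.59 FPKM in A3B OE. The fibroblast sum was 27.1 to 27.6 FPKM in NC and 29.6 to 40.9 FPKM in A3B OE, nearly all of it COL1A1 (means of 27.2 and 34.8 FPKM), against 6.16 to 8.33 FPKM in 92.1. Other fibroblast markers went the opposite way, with LUM at a mean of 4.43 FPKM in shCtrl and 0.0114 FPKM in NC. PDGFRA was at 0.691 and 0.0328 FPKM in these groups, and COL1A2 and DCN were under 1 FPKM in every library. The part of these markers in the results was not tested. In bulk RNA, fewer cells expressing a gene and less RNA per cell cannot be told apart.

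MGMT lies on the plus strand of chromosome 10 at chr10:129467190-129770983 (GRCh38, GENCODE 44), with 5 exons in its reference transcript. The 300-base RefSeq promoter window, chr10:129466991-129467290, ran from 250 bases before the RefSeq start to 50 after it. The RefSeq starts used for these windows differ from the GENCODE starts of the gene coordinates given here. The MGMT window had 78.7% G and C and held 45 CpG dinucleotides, where the median of 27305 promoters was 14 and 2.83% of promoters held more. The GC box, GGGCGG or its reverse complement CCGCCC, which the factor SP1 is known to bind, occurred 8 times on both strands together. At least as many boxes were found in 0.824% of promoters, and 44.6% held at least 1. CpG methylation of such sequence is how the gene is known to be silenced. A stretch of 30 bases from this window, chr10:129467033-129467062 on the plus strand of GRCh38.p14, is shown with the GC boxes in capitals. It was chosen as the first such stretch with the most boxes before the GENCODE start.
MGMT promoter: ccgacccggtcGGGCGGgaacaccCCGCCC
The stretch holds 2 boxes and 5 CpG dinucleotides and ends 128 bases before the GENCODE start. The same window of ALKBH2, set by its RefSeq start, held 24 CpG dinucleotides and 1 box, that of ALKBH3 held 21 and 0, and that of MPG held 34 and 3. The MPG window, chr16:77975-78274, lay inside the GENCODE gene given below and not at its start. Methylation was not measured here, and a motif match is a description of the letters only.

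MGMT was present in 92.1 at both levels of A3B and in MEL290 with added A3B, and was near the bottom of the expressed range in MEL290 control cells. MGMT stood at 22.7 and 18.4 FPKM with shCtrl and 23.7 and 17.8 FPKM with shA3B. In MEL290 it stood at 0.392 and 0.787 FPKM with NC and 18.7 and 19.9 FPKM with A3B OE. Only the NC libraries were low, and the A3B OE libraries lay inside the range of the 4 libraries of 92.1, which ran from 17.8 to 23.7 FPKM.

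In order of group means, MGMT was at 20.8 ± 4.21 FPKM (SD, n = 2) in shA3B, 20.5 ± 3.04 FPKM in shCtrl, 19.3 ± 0.898 FPKM in A3B OE and 0.590 ± 0.280 FPKM in NC. The first 3 groups overlapped with their neighbours in this order, and A3B OE and NC did not, as for 61.3% of the genes tested in MEL290. By rank within a library, 38.4% and 41.6% of all symbols had a lower FPKM than MGMT in the NC libraries, 78.0% and 79.6% in the A3B OE libraries, and between 77.0% and 81.6% in 92.1. MGMT thus ranked under the middle of the symbols in NC and near its 92.1 rank in A3B OE. Fragments were estimated from the rough depth and the shortest and longest protein-coding MGMT transcripts, 1265 and 4678 bases, each shortened by a fixed length. This gave 7 to 31 fragments in the first NC library and 17 to 73 in the second, against 554 to 2331 and 484 to 2034 in the A3B OE libraries. The NC values thus rest on few fragments, while those of A3B OE do not.

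**Figure D1:**
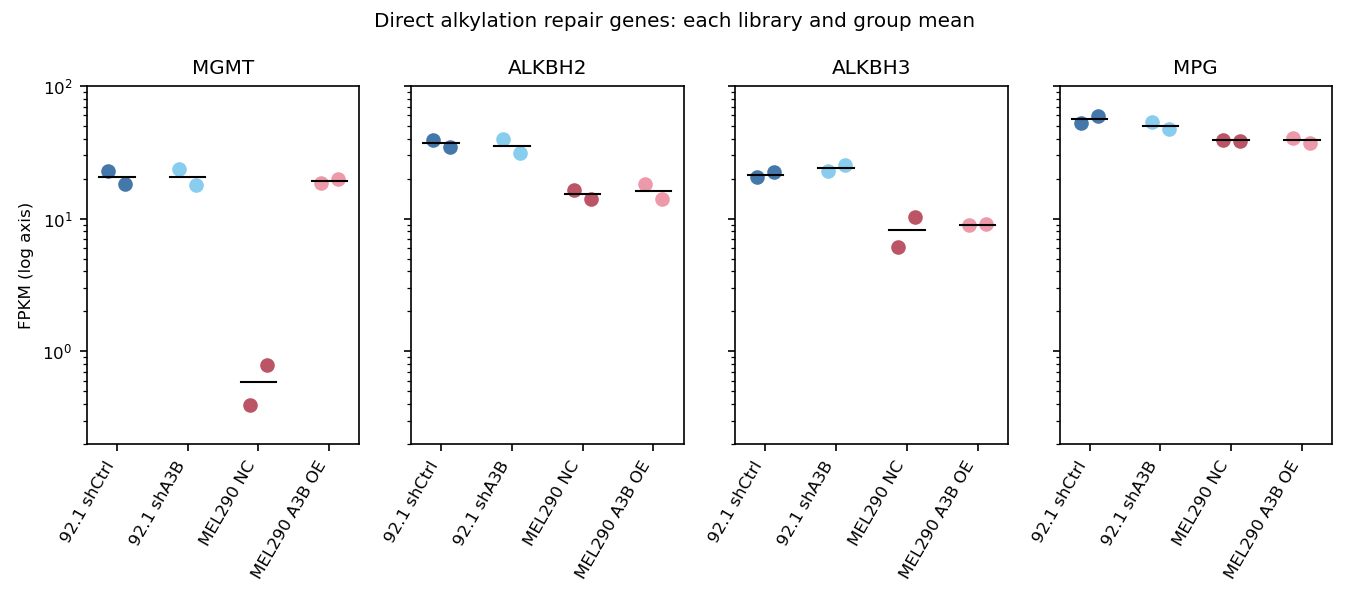
FPKM of MGMT, ALKBH2, ALKBH3 and MPG on a log axis in each of the 8 libraries (points) with the group mean (line), by group on the horizontal axis. The NC libraries of MGMT, at 0.392 and 0.787 FPKM, are the only ones under 1 FPKM, while for each of the other 3 genes all libraries of 92.1 lie above all libraries of MEL290.

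The A3B OE mean of MGMT was 32.7 times the NC mean in FPKM, a difference of 3.68 on the log2(FPKM + 1) scale. This was the largest of the positive differences among the 11611 genes tested in MEL290, and the next, CPM, stood at 3.17. MGMT entered the tested genes only through its A3B OE libraries, since both NC libraries were under the minimum of 1 FPKM. MGMT was the 1 gene under 1 FPKM in both NC libraries and at 10 FPKM or more in both A3B OE libraries, and 0 genes showed the opposite pattern. Since MGMT was chosen on these libraries, this is a description that depends on the cut-offs and not a finding. CPM came near the same cut-offs, at 0.715 and 1.22 FPKM in NC and 8.25 and 32.4 FPKM in A3B OE. Of the 183 genes under 1 FPKM in both NC libraries and at 10 FPKM or more in all 92.1 libraries, 162 stayed under 1 FPKM in both A3B OE libraries. Most genes that 92.1 expressed and MEL290 lacked were thus still low with added A3B.

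In 92.1, where MGMT was not chosen on its values, it did not differ between shA3B and shCtrl by more than the spread between libraries. The difference was 0.01 (standard error 0.17, 95% interval -0.37 to 0.39, limma adjusted p = 0.999), and in both groups replicate 1 was above replicate 2. A depletion of A3B that took its own FPKM down more than 10 times, from 34.1 to 2.18, thus went with an MGMT level whose interval excludes a fall by 1 on this scale. Of the 11605 genes tested in 92.1, 0.00862% were called, which was APOBEC3B alone, and 336 genes had an unadjusted p under 0.05. The difference of MGMT between the control groups, MEL290 NC minus 92.1 shCtrl, was -3.76, and the shCtrl mean was 34.8 times the NC mean in FPKM. The difference between the A3B effects of the cell lines, counted as high minus low A3B in both, was 3.69. It rests on the libraries that chose the gene and is given with no test.

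ALKBH2, ALKBH3 and MPG did not follow MGMT. All 3 were expressed in every library, none was called in either cell line for a change with A3B, and all 3 were lower in MEL290 than in 92.1. In the MEL290 comparison 17.8% of the 11611 tested genes were called, 10.3% higher and 7.49% lower with A3B OE.

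ALKBH2, at chr12:109088188-109093631 on the minus strand (4 exons), was at 39.5 and 34.9 FPKM in shCtrl, 39.6 and 31.4 FPKM in shA3B, 16.5 and 14.2 FPKM in NC, and 18.1 and 14.0 FPKM in A3B OE. The groups of a cell line overlapped in both lines. The difference was -0.07 in 92.1 (95% interval -0.41 to 0.26, limma adjusted p = 0.999) and 0.06 in MEL290 (95% interval -0.31 to 0.42, limma adjusted p = 0.828). As with MGMT, replicate 1 was the higher library in both groups of 92.1.

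ALKBH3, at chr11:43880811-43920274 on the plus strand (10 exons), was at 20.6 and 22.4 FPKM in shCtrl, 22.9 and 25.2 FPKM in shA3B, 6.08 and 10.4 FPKM in NC, and 8.89 and 9.04 FPKM in A3B OE. Both shA3B libraries were above both shCtrl libraries, as in one direction or the other for 28.6% of the genes tested in 92.1. The difference of 0.16 was not called (95% interval -0.15 to 0.47, limma adjusted p = 0.999). In MEL290 both A3B OE libraries lay between the NC libraries, with a difference of 0.15 (95% interval -0.39 to 0.70, limma adjusted p = 0.685). The NC libraries of ALKBH3 were far apart, so this interval is the widest of the 3 genes in MEL290.

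MPG, at chr16:77007-85851 on the plus strand (4 exons), was at 52.3 and 59.5 FPKM in shCtrl, 53.2 and 47.3 FPKM in shA3B, 39.2 and 38.5 FPKM in NC, and 40.3 and 37.4 FPKM in A3B OE. It had the highest FPKM of the 4 genes in every library, on a scale divided by transcript lengths that are not known for certain here. The difference was -0.15 in 92.1 (95% interval -0.46 to 0.15, limma adjusted p = 0.999) and -0.00 in MEL290 (95% interval -0.20 to 0.20, limma adjusted p = 0.995). The interval in MEL290 is the narrowest of the 3 genes.

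Between the control groups, where 74.9% of 12697 genes were called and 40.1% were called lower in MEL290 NC than in 92.1 shCtrl, ALKBH2, ALKBH3 and MPG were all called lower. The shCtrl mean was 2.42 times the NC mean for ALKBH2 (difference -1.23, standard error 0.16, limma adjusted p = 0.000156) and 2.62 times for ALKBH3 (difference -1.33, standard error 0.20, limma adjusted p = 0.000345). For MPG it was 1.44 times (difference -0.51, standard error 0.10, limma adjusted p = 0.00207). All 4 libraries of 92.1 were above all 4 libraries of MEL290 for these 3 genes, with ALKBH2 at 31.4 to 39.6 against 14.0 to 18.1 FPKM, ALKBH3 at 20.6 to 25.2 against 6.08 to 10.4 FPKM and MPG at 47.3 to 59.5 against 37.4 to 40.3 FPKM. Such a separation in one direction or the other was seen for 72.8% of the genes. With 1 cell line on each side and a different control vector in each, line and vector cannot be told apart.

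The effect of high against low A3B was also compared between the lines for the 3 genes chosen by function, in a fit over all 8 libraries that called 5.57% of the genes, 3.59% for a more positive effect in MEL290 and 1.98% for a more negative one. ALKBH3 differed by 0.31 (95% interval -0.33 to 0.95, limma adjusted p = 0.589), ALKBH2 by -0.01 (95% interval -0.54 to 0.51, limma adjusted p = 0.985) and MPG by -0.15 (95% interval -0.49 to 0.19, limma adjusted p = 0.619). The sign of each of these 3 differences turned when the 92.1 effect was signed the opposite way. Cell line and the way A3B was changed, by cDNA or by hairpin, cannot be told apart in this comparison.

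**Figure D2:**
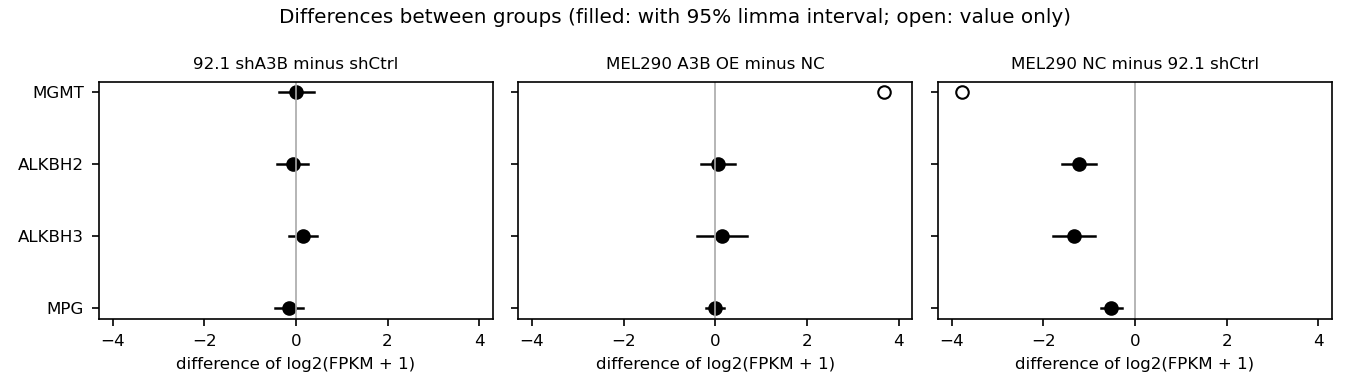
Differences of log2(FPKM + 1) for the 4 genes in 92.1 (shA3B minus shCtrl), in MEL290 (A3B OE minus NC) and between the control groups, with the 95% limma interval as a line. Open points, MGMT at 3.68 and -3.76, are values with no test, and the intervals of ALKBH2, ALKBH3 and MPG include 0 within each line and lie under 0 between the controls.

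Genes that act beside the 4 were described in 6 lists holding 65 genes, all of them in the files. In 92.1 all 65 were tested and 0 were called by limma, with 0 at an unadjusted p under 0.05 and differences from -0.18 for SMUG1, a uracil glycosylase, to 0.27 for OTUD4, a partner of ALKBH3. In MEL290 63 were tested and 23.8% were called, 13 higher and 2 lower, against 17.8% of all genes. Their median difference was 0.08 and that of all tested genes was 0.00. No gene list as a whole was tested.

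The other members of the ALKBH family, 7 genes, had 0 called by limma in MEL290, with 0 at an unadjusted p under 0.05 and a median of -0.03. Of all 11611 genes tested in MEL290, 3848 had an unadjusted limma p under 0.05. ALKBH4 had the largest difference at -0.22 (limma adjusted p = 0.417), followed by ALKBH5, an RNA demethylase, at -0.15 (limma adjusted p = 0.256). The partners of ALKBH2 and ALKBH3, 8 genes, also had 0 called, with 2 at an unadjusted p under 0.05 and a median of -0.07. These were ASCC2, which recruits the ALKBH3 repair complex, at 29.2 ± 4.83 FPKM in NC and 21.2 ± 1.96 FPKM in A3B OE (difference -0.44, limma adjusted p = 0.0775), and ASCC3, the helicase that unwinds DNA for ALKBH3 (difference -0.27, limma adjusted p = 0.107). The ASCC2 difference depended on the NC libraries, at -0.60 without the first (limma adjusted p = 0.00778) and -0.27 without the second (limma adjusted p = 0.264).

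Among 15 genes of base excision repair downstream of MPG, 6 were called higher and 0 lower in MEL290 with A3B OE. Of all tested genes, 10.3% were called higher and 7.49% lower. The differences of the 15 genes ran from -0.45 to 0.87, with a median of 0.24. LIG1, a DNA ligase, rose from 15.1 ± 0.234 to 28.5 ± 1.24 FPKM (difference 0.87, limma adjusted p = 0.00373). XRCC1, the scaffold of single-strand break repair, rose from 20.2 ± 1.56 to 33.6 ± 1.14 FPKM (difference 0.70, limma adjusted p = 0.00725). PARP1, the sensor of strand breaks, rose from 29.0 ± 1.98 to 45.7 ± 7.46 FPKM (difference 0.63, limma adjusted p = 0.0226), and FEN1, the flap endonuclease, from 18.2 ± 1.01 to 27.6 ± 2.26 FPKM (difference 0.57, limma adjusted p = 0.0156). LIG1 and FEN1 also act in DNA replication.

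The 10 other DNA glycosylases moved both ways, 2 called higher and 2 called lower, with a median of -0.05, against 10.3% and 7.49% of all tested genes. NEIL3 rose from 1.83 ± 0.0973 to 4.53 ± 0.198 FPKM (difference 0.97, limma adjusted p = 0.00818) and UNG, which removes the uracil that A3B makes, from 18.9 ± 1.22 to 25.6 ± 2.15 FPKM (difference 0.42, limma adjusted p = 0.0422). TDG, a thymine and uracil glycosylase, fell from 18.2 ± 1.10 to 12.4 ± 1.12 FPKM (difference -0.52, limma adjusted p = 0.0266) and NEIL2 from 9.50 ± 0.810 to 6.43 ± 0.562 FPKM (difference -0.50, limma adjusted p = 0.0462).

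Mismatch repair recognises the mispairs that O6-methylguanine forms when MGMT does not remove it. Of its 9 genes, 3 were called higher and 0 lower in MEL290, against 10.3% and 7.49% of all tested genes. Their differences ran from -0.18 to 0.48, with a median of 0.36. MSH6, which recognises mismatches, rose from 17.6 ± 0.300 to 23.1 ± 0.108 FPKM (difference 0.38, limma adjusted p = 0.0356). PCNA, the sliding clamp, which also serves replication, rose from 75.4 ± 0.775 to 100.3 ± 1.74 FPKM (difference 0.41, limma adjusted p = 0.0125).

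Of 16 genes known to act on the MGMT promoter or on DNA methylation, 14 were tested in MEL290. There 2 were called higher and 0 lower, against 10.3% and 7.49% of all tested genes. The differences ran from -0.28 to 0.62, with a median of 0.10. UHRF1, which guides maintenance methylation, rose from 14.3 ± 1.60 to 22.5 ± 1.99 FPKM (difference 0.62, limma adjusted p = 0.0204) and DNMT1, the maintenance methyltransferase, from 25.1 ± 0.600 to 37.2 ± 3.20 FPKM (difference 0.55, limma adjusted p = 0.0144). The untested genes were DNMT3B, a de novo methyltransferase, at 0.734 ± 0.199 FPKM in NC and 1.00 ± 0.0747 FPKM in A3B OE, and TET1, a methylcytosine dioxygenase, at 0.187 ± 0.0354 and 0.565 ± 0.0346 FPKM.

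MKI67, a marker of dividing cells, was at 10.7 ± 0.103 FPKM in NC and 29.8 ± 1.15 FPKM in A3B OE (difference 1.39, limma adjusted p = 0.00158), and was not called when all 8 libraries were fitted together (limma adjusted p = 0.119). It rose, as did the called genes named above except TDG and NEIL2, which fell. The part of MKI67 in these changes was not tested. Of the 12 called genes named from these lists, the calls of LIG1, XRCC1 and PCNA held when any 1 library was left out, and the other 9 lost the call without at least 1 library. The first A3B OE library was among those whose loss ended the calls of PARP1 (difference 0.47), FEN1 (difference 0.49), UHRF1 (difference 0.53) and DNMT1 (difference 0.46).

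**Figure D3:**
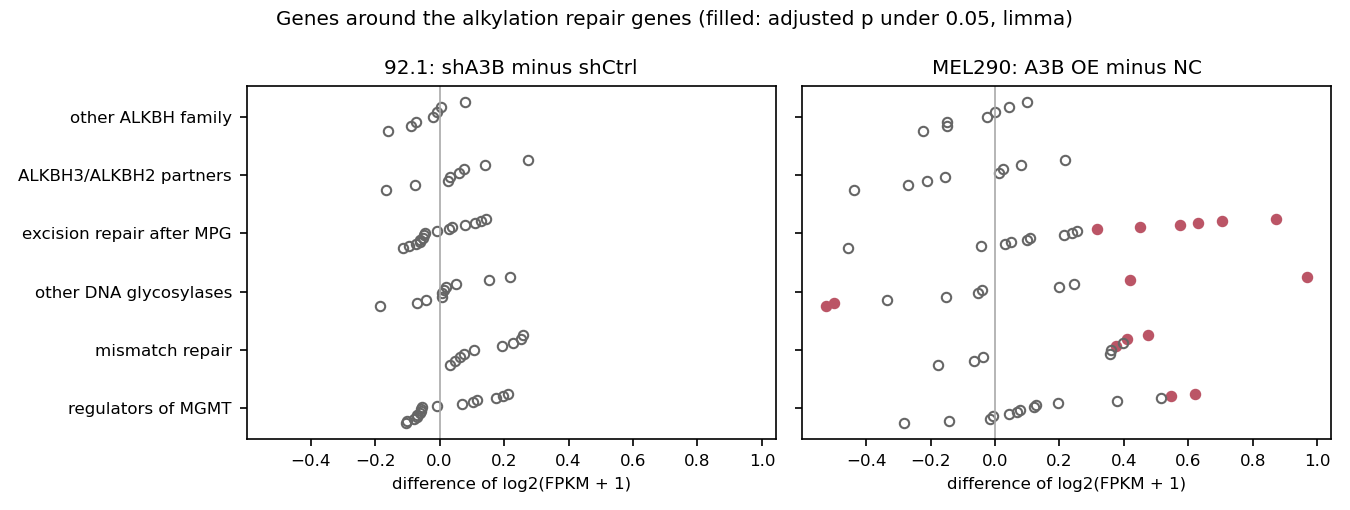
Differences of log2(FPKM + 1) for the genes of the 6 lists in 92.1 (left) and MEL290 (right), 1 point per tested gene, filled where the limma adjusted p was under 0.05. In 92.1 0 of 65 genes are filled, and in MEL290 15 of 63 are, 13 to the right of 0 and 2 to the left, with none in the ALKBH family or among its partners.

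Between the control groups, 44 of the 65 genes were called, 13 higher and 31 lower in MEL290 NC, a share of 67.7% against 74.9% of all genes. The genes downstream of MPG had 1 higher and 8 lower and the MGMT regulators 1 higher and 8 lower, while the ALKBH partners had 5 higher and 1 lower. The ALKBH family had 2 higher and 3 lower, the other glycosylases 1 and 6, and mismatch repair 3 and 5. DNMT3B was at 5.81 ± 0.823 FPKM in shCtrl against 0.734 ± 0.199 FPKM in NC, a difference of -1.97 (limma adjusted p = 4.39e-06). HIF1A, the hypoxia factor, stood the other way, at 23.9 ± 1.60 FPKM in shCtrl and 244.9 ± 3.11 FPKM in NC (difference 3.30, limma adjusted p = 1.53e-08). DNMT3B and HIF1A were chosen after their values were seen.

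MGMT was chosen for its large rise in MEL290, so smaller differences of the genes around it follow from that choice. The share of these genes that were called can be set against that of all genes. Within 5 Mb of its start 29 genes were tested in MEL290, of which 3 were called higher and 1 lower, a share of 13.8% against 17.8% of all genes, with a median difference of 0.01. GLRX3, a glutaredoxin and the nearest tested gene after it, starting 669.2 kb away, had a difference of -0.06 (limma adjusted p = 0.66), and MKI67, starting 1340.8 kb before it, was among the called genes. The other called neighbours, chosen after their values were seen, were BNIP3 (difference 0.51), FUOM (difference 0.73) and UROS (difference -0.46). In 92.1 27 neighbours were tested and 0 were called by limma, with 0 at an unadjusted p under 0.05 and a median of 0.00.

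**Figure D4:**
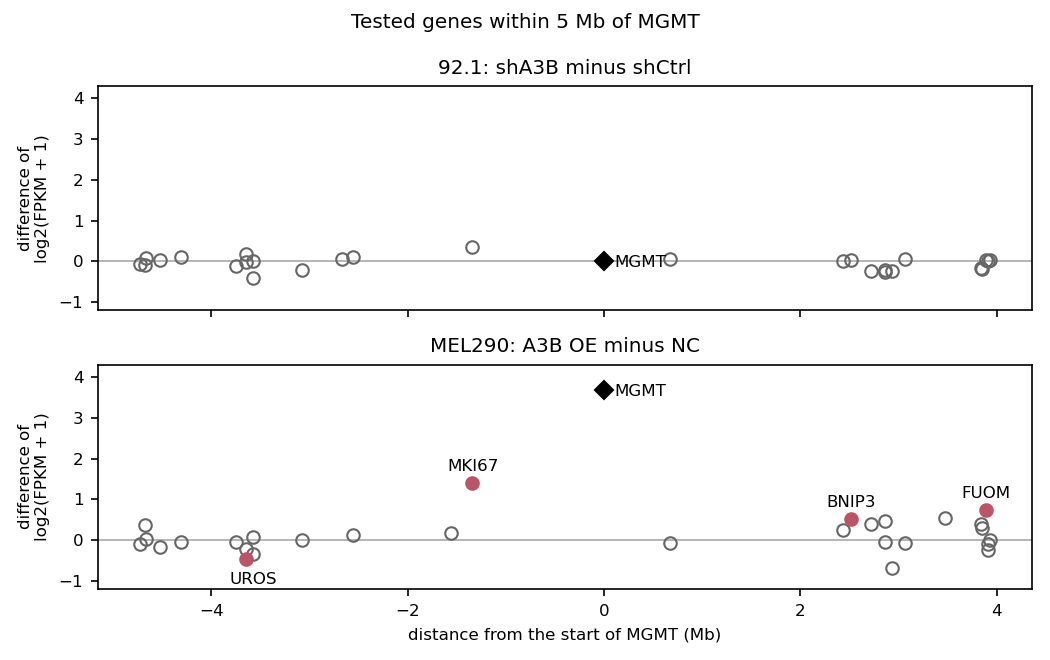
Difference of log2(FPKM + 1) against the distance from the start of MGMT in Mb for tested genes within 5 Mb, in 92.1 (top) and MEL290 (bottom), filled where the limma adjusted p was under 0.05, with MGMT as a diamond. In MEL290 MGMT stands at 3.68, and the highest neighbour, MKI67, at 1.39. MGMT was chosen for its rise, so its place above its neighbours is not a finding.

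The neighbourhoods of the other 3 genes also had called shares near the background in MEL290. Of 67 tested genes around ALKBH2, 17.9% were called (4 higher, 8 lower), of 38 around ALKBH3, 21.1% (6 higher, 2 lower), and of 127 around MPG, 11.8% (8 higher, 7 lower). UNG, which rose, starts 3.97 kb from ALKBH2, which was not called. In 92.1 0 neighbours of these 3 genes were called by limma, among 66, 39 and 125 tested, with 2, 3 and 4 at an unadjusted p under 0.05.

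The genes whose pattern over the 8 libraries was most like that of MGMT were also at their lowest in NC. Among 2690 genes with a range of at least 2 on the log2(FPKM + 1) scale, GSTM2, a glutathione transferase, had the highest Pearson correlation with MGMT, 0.99. It was at 14.5 ± 1.47 FPKM in shCtrl, 12.2 ± 0.337 FPKM in shA3B, 1.57 ± 0.478 FPKM in NC and 12.6 ± 0.0660 FPKM in A3B OE (SD, n = 2 each). Next came SYNE2, a protein of the nuclear envelope (0.96), ZNF141, a zinc finger gene (0.95), BMF, a pro-apoptotic BCL2 relative (0.94), and KIFC1, a mitotic kinesin (0.93). ZNF141 was at 0.00437 and 0.00745 FPKM in the NC libraries and at 2.76 and 2.33 FPKM in A3B OE, against 4.72 to 5.43 FPKM in 92.1. KIFC1 had means of 9.29 FPKM in NC and 24.9 FPKM in A3B OE, against 41.2 FPKM in shCtrl. For SYNE2, ZNF141, BMF and KIFC1, unlike MGMT and GSTM2, both A3B OE libraries lay below all libraries of 92.1. With a pseudocount of 0.1 in the correlation, GSTM2 and ZNF141 were still among the 5 most like genes and SYNE2, BMF and KIFC1 were not.

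The lowest correlations were those of CD24, a surface glycoprotein (-0.95), PTCHD4 (-0.94) and ALPK2 (-0.93), which were high in NC. CD24 was at 3.10 and 3.44 FPKM in NC and at 0.835 and 0.431 FPKM in A3B OE, with 0.0378 to 0.451 FPKM in 92.1. The correlations of ALKBH3 (0.64), ALKBH2 (0.61), MPG (0.55) and APOBEC3B (0.54) with MGMT were lower than those of the 5 genes above. All are descriptions over the same 8 libraries, which fall into 4 groups, and genes chosen for likeness to MGMT share its low NC values by choice.

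**Figure D5:**
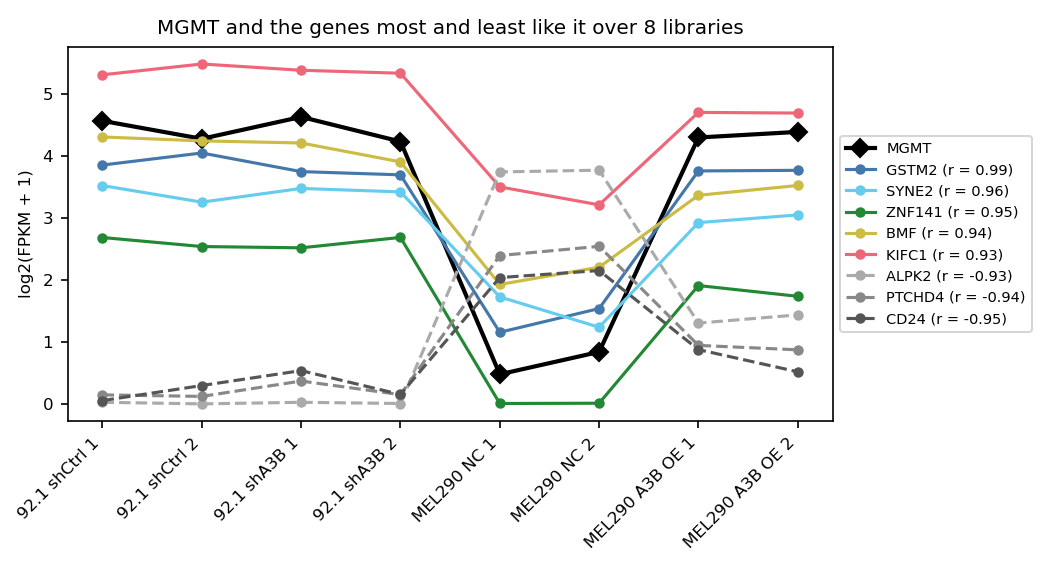
Level as log2(FPKM + 1) in each of the 8 libraries for MGMT (black), the 5 genes with the highest Pearson correlation with it (solid lines) and the 3 with the lowest (dashed lines). MGMT and the 5 genes drop in the NC libraries, where CD24, PTCHD4 and ALPK2 are high.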

How the data were processed

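RNA of 8 libraries, 2 per group, was sequenced. Per the labels and the study's methods, the authors aligned reads to GRCh38 with STAR and calculated the deposited FPKM values per gene with Cufflinks (versions not given in the sources used here). Those methods name an Ensembl release, but the files use newer symbols, so the gene models behind each length are uncertain. FPKM are not counts, so no count test was run and depth is a rough estimate. Coordinates come from GENCODE 44 by symbol (19033 of 19952 matched), and promoters from RefSeq (GRCh38.p14, all 4 genes matched).

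Values were transformed as log2(FPKM + 1). Genes at 1 FPKM or more in at least 2 libraries of a fit were tested with limma 3.58.1 in R 4.3.3 (trend, Benjamini-Hochberg, threshold 0.05), each line alone, and all 8 libraries together for comparisons between lines. The code was tested on simulated data. The 4 genes and the 6 lists were chosen with earlier results of these data known. Named genes were up to 4 called genes per list and line with the largest differences, or the 2 largest uncalled ones where fewer than 2 were called, the 5 highest and 3 lowest correlations with MGMT, and the nearest tested genes. Exceptions are marked in the text, and 1 gene that the rule names is not reported here. Values of exactly 0 may be failed estimates and are called listed at 0.

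Alternatives were limma without the trend, other scalings and filters, a pseudocount of 0.1, a replicate block, the opposite sign for 92.1, 1 fit of 8 libraries, and each library left out.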

Additional observations from a re-analysis of the deposited data

Results flagged for a closer look

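For 4 genes of the repair lists, the effect of high against low A3B was larger in MEL290 than in 92.1 in the limma fit over all 8 libraries, by 0.98 for NEIL3 (adjusted p = 0.0156), 0.83 for LIG1 (adjusted p = 0.0397), 0.65 for FEN1 (adjusted p = 0.0431) and 0.45 for PCNA (adjusted p = 0.0457). Of all genes, 3.59% were called in the same direction. A3B was raised by cDNA in MEL290 and lowered by a hairpin in 92.1, so line and construct cannot be told apart. With each of the 8 libraries left out in turn, FEN1 and PCNA lost the call in 8 of 8 fits, LIG1 in 7 and NEIL3 in 5, with adjusted p-values reaching 0.0706 for NEIL3, 0.129 for LIG1, 0.15 for FEN1 and 0.161 for PCNA. With all libraries kept, the call was lost in 5 of 8 alternatives for FEN1, 4 for PCNA, 2 for LIG1 and 1 for NEIL3. With the 92.1 effect signed the opposite way, FEN1 (0.50) and PCNA (0.36) lost the call.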

How the results depend on the processing

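ALKBH2, ALKBH3 and MPG kept their side of the threshold in every comparison and alternative run. Of 121 values of the 4 genes under alternatives that kept all libraries, 113 were counted as unchanged, 3 moved and 5 changed sign. Unchanged meant the same sign and the same side of the threshold, whatever the size of the shift. For MGMT values given with no test, it meant the same sign and a shift smaller than the spread between libraries in the fit. The moves were MGMT with a pseudocount of 0.1, at 4.87 in MEL290, -4.96 between the controls and 4.88 between the lines. The sign changes were MPG in MEL290 (0.0286) and the ALKBH2 difference between the lines (0.0471) with upper quartile scaling, and, with the 92.1 effect signed the opposite way, ALKBH2 (0.13), ALKBH3 (-0.0058) and MPG (0.15) between the lines. With 1 library left out, 14 of 94 values changed sign, with ranges of -0.19 to 0.21 for MGMT and -0.23 to 0.0912 for ALKBH2 in 92.1, -0.12 to 0.23 for ALKBH2, -0.19 to 0.49 for ALKBH3 and -0.0525 to 0.0507 for MPG in MEL290, and -0.19 to 0.16 for ALKBH2 and -0.0311 to 0.65 for ALKBH3 between the lines. MGMT in MEL290 was 3.50 to 3.86 without 1 NC library. Without an A3B OE library, or with 1 FPKM required in every library, it failed the filter and has no value.

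The called genes in 92.1 were 2 without the trend and 0 with no filter on low FPKM (556 at an unadjusted p under 0.05), where APOBEC3B had an adjusted p of 0.343, and 2 to 9 with 1 library left out. In MEL290 they were 915 with no filter and 809 to 1979 with 1 library left out, the lowest without the second A3B OE library and 888 without the first. Between the lines they were 707 in the fit reported and 67 to 424 with 1 library left out, lowest without the second A3B OE library. MKI67 in 92.1 ranged from -0.52 to 1.25 with 1 library left out. For the other named genes, 28 of 288 alternatives with all libraries ended a call. The genes most like MGMT shared 2 of 5 with a pseudocount of 0.1, chosen after seeing the data. The cause of these changes was not tested.

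Same-numbered replicates were not shown to be paired, with deviations correlating at 0.19 in 92.1 and -0.03 in MEL290 over 2 pairs each. A replicate block gave 37 called genes in 92.1 and 312 between the lines, and in MEL290 it ended the calls of NEIL2 and MSH6. It changed no call of ALKBH2, ALKBH3 or MPG. Depth limits MGMT in NC, which rests on few fragments.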
